A study of Mus musculus with 5 samples.

Results

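The 35 genes described here are induced by type I interferon or carry its signal to the nucleus. They were taken by name from a table of 38924 genes, and all 35 were found. RNA was sequenced from eGFP+ germinal center B cells sorted by flow cytometry from the spleens of mice aged 12 weeks, on day 7 after they were given sheep red blood cells as antigen. The DKO group (2 libraries) came from Relb fl/fl Nfkb2 fl/fl Cg1-Cre mice, in which both genes of the alternative NF-κB heterodimer are floxed. The WT group (3 libraries) came from littermates that carried Cg1-Cre alone, so both groups share the Cre. This Cre is driven by the IgG heavy chain constant region gene Cγ1 and acts in B cells that transcribe it. The comparison asks which transcripts depend on RELB and NF-κB2 p52 in these cells. Nothing in the labels states that each library came from a separate mouse, so p-values measure only the spread between these libraries.

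Type I interferons bind a receptor made of IFNAR1 and IFNAR2, whose kinases JAK1 and TYK2 phosphorylate STAT2. A complex that holds STAT2 and IRF9 then enters the nucleus and binds the interferon-stimulated response element in the promoters of its target genes. The targets include sensors of foreign RNA and DNA, enzymes that degrade RNA or block translation, proteins that hold virus particles back, and the factors IRF7, IRF9 and STAT2, which feed the response. In B cells the same program is turned on by interferon from other cells and by nucleic acid sensors such as TLR7 and TLR9. Many of its genes keep a low level without infection.

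The response element was looked for in the RefSeq promoters of the members (GRCm38.p6, 250 bases before to 50 after the annotated start, a later build than the mm9 of the authors). Of the 35 members 25 had a promoter in that table. The element's core, GAAANNGAAA on either strand, was found in 12 of these 25, or in 12 of their 29 windows (41.4%), against 3.44% of 32851 promoter windows of the same length. The NF-κB consensus, which may be read on either strand and overlap itself, was found in 5 of the 25, or in 5 of the 29 windows (17.2%), against 8.46% of all windows, and 2 members held both. The 160 bases before the start are shown for the members with the smallest p in each direction that held the core (Ifit1 and Ifit3 lower, Oas1a higher in DKO), and for Isg15, added after the matches were seen, whose 3 matches overlap. Capitals mark the core matches, on the strand of the gene.
Ifit1 (chr19:34640729-34640888, plus strand): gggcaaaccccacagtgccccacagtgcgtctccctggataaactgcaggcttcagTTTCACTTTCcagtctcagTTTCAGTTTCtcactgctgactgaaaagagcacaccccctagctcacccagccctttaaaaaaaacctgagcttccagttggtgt
Ifit3 (chr19:34583369-34583528, plus strand): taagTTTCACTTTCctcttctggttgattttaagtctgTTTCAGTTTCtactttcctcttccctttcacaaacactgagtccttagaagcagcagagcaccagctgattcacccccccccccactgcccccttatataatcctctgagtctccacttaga
Oas1a (chr5:120907526-120907685, minus strand): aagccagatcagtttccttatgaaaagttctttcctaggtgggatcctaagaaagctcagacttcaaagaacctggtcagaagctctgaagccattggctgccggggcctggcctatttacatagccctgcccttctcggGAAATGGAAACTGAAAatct
Isg15 (chr4:156200819-156200978, minus strand): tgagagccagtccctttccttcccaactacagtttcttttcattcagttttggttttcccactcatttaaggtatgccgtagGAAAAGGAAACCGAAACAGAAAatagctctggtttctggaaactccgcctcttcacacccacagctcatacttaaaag

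Ifit1 and Ifit3 both hold a pair of separate cores, in the opposite orientation to the gene, while Isg15 and Oas1a hold overlapping ones in the orientation of the gene. Of the 4, Ifit1 and Ifit3 had DKO values below all WT values, and Oas1a and Isg15 had groups that overlapped. These genes were picked by p and direction, and Isg15 by its matches, so they cannot relate the layout of cores to the difference. A match describes these letters only, and binding was not measured here. Oas1g, the near copy of Oas1a, also held overlapping cores close to its start, at 0 or 3 reads in DKO libraries and 0 or 1 in WT libraries.

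**Figure D1:**
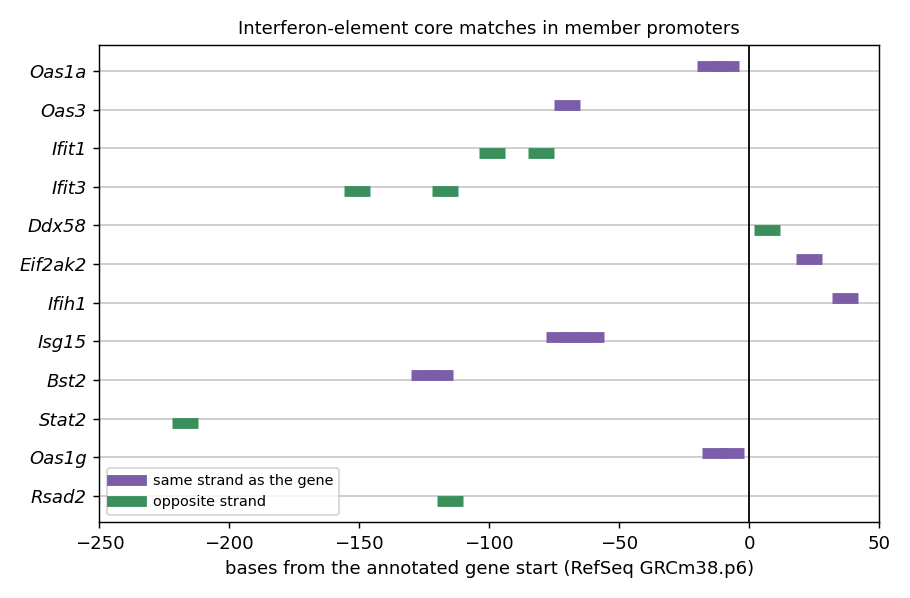
Position of each GAAANNGAAA match in the promoters of the 12 members that hold one, in bases from the annotated start, with purple bars for matches on the strand of the gene and green bars for the opposite strand. Most matches lie before the start, and those of Ddx58, Eif2ak2 and Ifih1 lie after it.

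Library totals ran from 33953377 to 57582464 reads, and genes outside the mitochondrial genome kept 15.4 to 17.7 M reads. The 35 members took 25494 and 17596 reads in DKO replicates 1 and 2, and 18394, 24525 and 18950 reads in WT replicates 1 to 3. Values below are normalized counts, which are reads divided by the authors' scaling factor per library, so that 1 read is worth 0.826 to 1.07. Relb was at 56.9 and 10.7 in DKO replicates 1 and 2, against 136, 171 and 117 in WT replicates 1 to 3. Nfkb2 was at 298 and 73.5 in DKO, against 657, 601 and 445 in WT. DKO replicate 1 thus kept 40.2% of the WT mean of Relb and 52.5% of that of Nfkb2, and DKO replicate 2 kept 7.59% and 13.0%. All 9 markers of germinal center B cells were detected in every library, with Bcl6 at 9887 or more in DKO and at 9681 or more in WT.

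No interferon response gene passed the threshold between DKO and WT, but most had lower means in DKO. Of the 35 members 33 reached a mean of 10 normalized counts and were tested, and Oas1g and Rsad2 did not. The log2 fold change of DKO over WT was below 0 in 26 of the 33 (78.8%), against 49.95% of the 13242 genes tested, and the median was −0.25 against 0.00 over all genes. The members moved together by library, so they are not 33 separate observations of genotype. Within DKO, 81.8% of them were higher in replicate 1 than in replicate 2, against 51.6% of all genes. Without DKO replicate 2, 44.1% of the members were lower in DKO. At an adjusted p under 0.05 limma called 0 members, against 0% of all genes (smallest adjusted p of a member 0.823). At an unadjusted p under 0.05 it had 2 members lower and 0 higher, where the background was 2.37% lower and 3.69% higher, or 6.06% in either direction. EdgeR on the recovered reads also called 0 members, with 3 at an unadjusted p under 0.05, where the background was 0% called and 5.65% at that unadjusted p. All 3 were lower, where 303 of the 13242 genes were lower and 445 higher at that p in edgeR. DESeq2 called 0 members, where the background was 0.219%, and had 3 at an unadjusted p under 0.05, all lower, where the background was 6.77% in either direction. By direction, 397 of the 13242 genes were lower and 500 higher at that p in DESeq2. The median standard error was 0.48 over the members, against 0.33 over all genes. In bulk RNA, fewer cells of a type and less RNA per cell cannot be told apart.

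**Figure D2:**
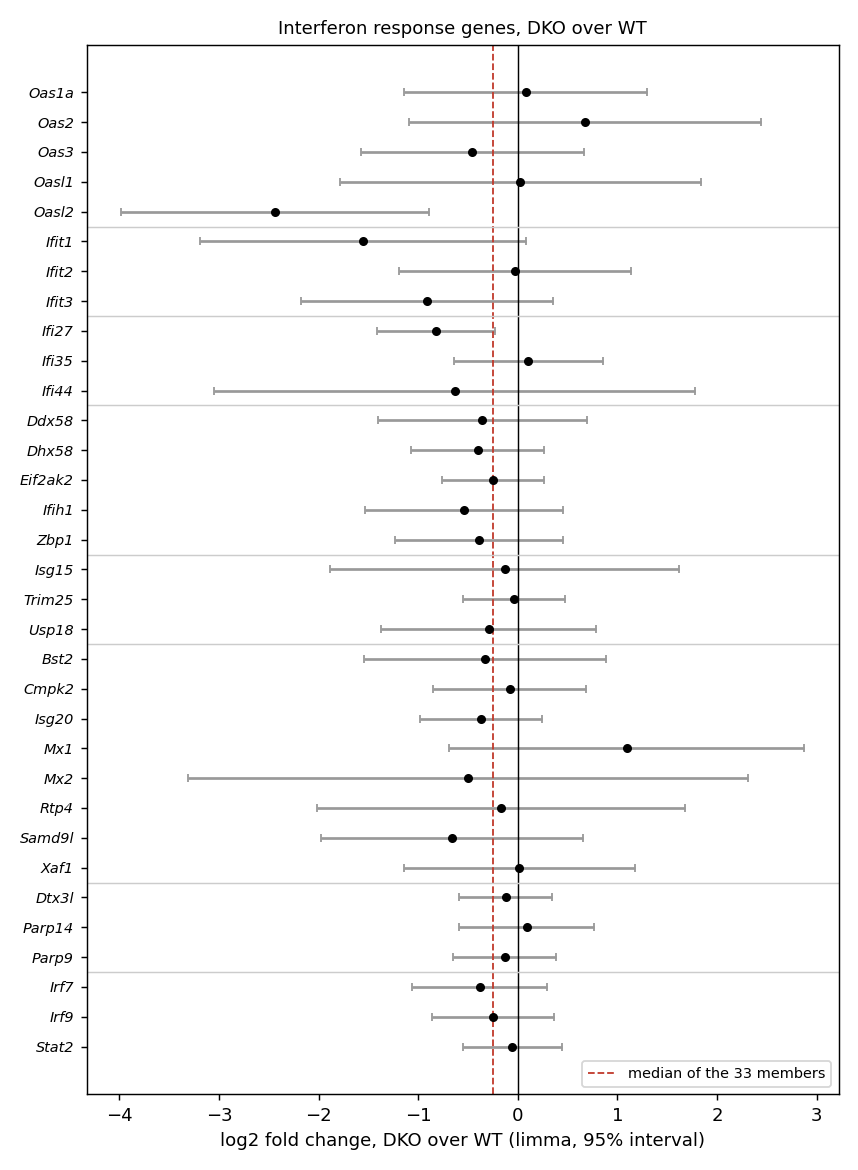
Log2 fold change of DKO over WT for the 33 tested members with 95% intervals from limma (DKO n = 2, WT n = 3), grouped by role. Most points lie left of 0 and the median, drawn as a dashed line, is −0.25, while only the intervals of Oasl2 and Ifi27 leave out 0.

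The groups did not overlap in 6 members (18.2% of the 33), all lower in DKO, where 11.0% of all tested genes were below WT without overlap and 12.5% above it (23.4% together). These were Oasl2, Ifit1, Ifit3, Ifi27, Dhx58 and Irf7. No member lay above all WT values in both DKO libraries. Removing DKO replicate 2 turned the median log2 fold change of the members to 0.07, with 15 of 34 lower, while removing DKO replicate 1 left it at −0.54, with 32 of 34 lower. Each of these fits holds 1 DKO library, whose spread is taken from the WT libraries. Removing WT replicate 2 gave a median of −0.13, with 21 of 32 lower.

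**Figure D3:**
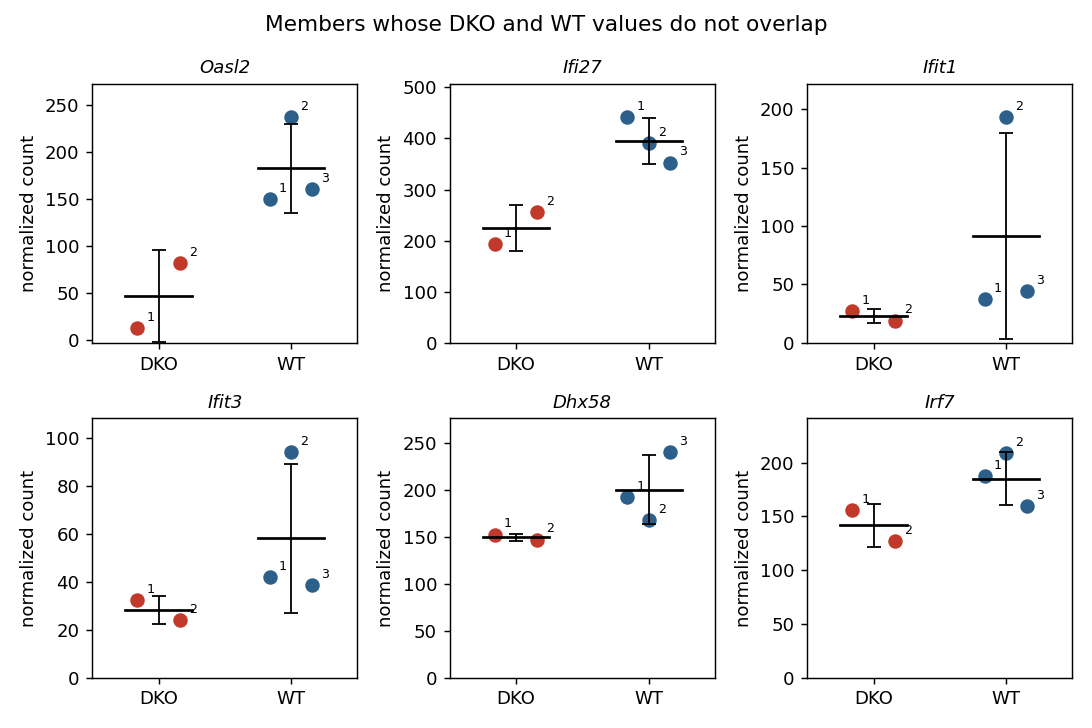
Normalized counts of the 6 members whose DKO and WT values do not overlap, with points numbered by replicate and bars for the mean and SD (DKO n = 2, WT n = 3). Both DKO points lie below all WT points in each panel, and the gap is widest in proportion in Oasl2.

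Libraries of the same genotype also stood apart in these genes. The mean log2(value + 1) of the 33 tested members was 7.57 and 7.04 in DKO replicates 1 and 2, against 7.52, 8.04 and 7.30 in WT replicates 1 to 3. DKO replicate 2 was thus the lowest library, and DKO replicate 1 lay inside the WT range. Mitochondrial ribosomal RNA took 47.0% and 60.6% of reads in DKO replicates 1 and 2, against 62.4%, 51.6% and 70.9% in WT replicates 1 to 3, so that the share was lowest in the pair of libraries with the highest member levels, and its part in the result was not tested. WT replicate 2 was the highest library for 18 of the 33 members, where the background over all tested genes was 21.3%. DKO replicate 1 was the highest for 6 (background 22.1%), DKO replicate 2 for 0 (13.5%), WT replicate 1 for 5 (20.1%) and WT replicate 3 for 4 (23.0%). DKO replicate 2 was the lowest library for 14 of the 33, where the background was 15.4%. DKO replicate 1 was the lowest for 3 (background 21.8%), WT replicate 1 for 5 (18.2%), WT replicate 2 for 4 (20.5%) and WT replicate 3 for 7 (24.1%). Within DKO, 27 of the 33 members were higher in replicate 1 than in replicate 2, with a median log2 difference of 0.56, against 0.02 over all genes. Within WT, replicate 2 exceeded replicate 1 in 24 and replicate 3 in 25 of the 33, with median log2 differences of 0.39 and 0.53, against −0.02 and 0.02 over all genes.

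**Figure D4:**
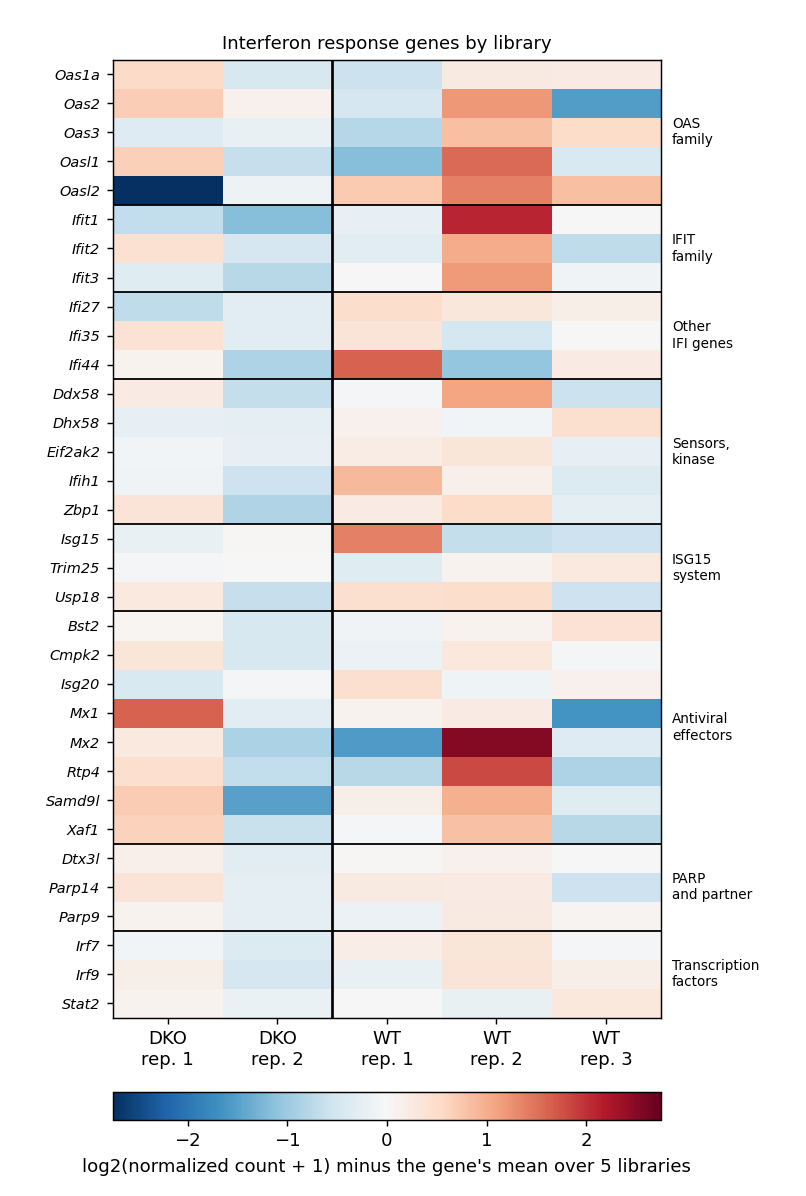
Log2(normalized count + 1) of each tested member minus its mean over the 5 libraries, with DKO libraries left of WT libraries and genes grouped by role. The WT replicate 2 column is mostly red and the DKO replicate 2 column mostly blue, while DKO replicate 1 is mixed, with Oasl2 at its lowest there.

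Markers of other lymphocytes were high in the same WT library. The summed level of the 8 T cell markers was 413 and 99.9 normalized counts in DKO replicates 1 and 2, against 76.0, 978 and 58.6 in WT replicates 1 to 3. The 6 naive B cell markers summed to 19749.9 and 9852 in DKO, against 7669.5, 22265 and 11668 in WT. The 6 NK cell markers summed to 55.2 and 19.8 in DKO, against 26.8, 245 and 5.77 in WT. WT replicate 2 and DKO replicate 1 thus stood above the other libraries in all 3 lists. Siglech, a marker of plasmacytoid dendritic cells, was at 0.876 and 0.826 in DKO, against 0, 66.0 and 0 in WT. Klk1 and Cox6a2 of the same list were at 10.3 and 12.4 in WT replicate 2, and at 0 to 1.75 in the DKO libraries and 0 in the other WT libraries. These values in WT replicate 2 rest on 10 and 12 reads, and both genes were below the minimum for testing. Ccr9 of the same list was instead highest in DKO replicate 1, at 78.8 and 14.04 in DKO, against 20.3, 55.7 and 5.77 in WT. The 7 genes on that list summed to 5589.7 and 5695 in DKO, against 7985, 6229 and 4637 in WT, of which Tcf4 alone gave 5475 and 5657 in DKO, against 7935, 6050.4 and 4589 in WT. Of these genes Cd300c was at 0 in every library, and Bst2 is also a member of the interferon genes. The 8 macrophage and monocyte markers summed to 1326 and 761 in DKO, against 1429, 1024 and 332 in WT. The 5 granulocyte markers summed to 188 and 0.826 in DKO, against 0, 84.6 and 0 in WT, and the 5 plasma cell genes to 3709 and 3405 in DKO, against 5968, 5164 and 4619 in WT. When WT replicate 2 and DKO replicate 1 were both left out, the members' median log2 fold change was −0.33, with 26 of 32 lower. That fit sets DKO replicate 2 alone, the lowest library for these genes, against 2 WT libraries. A fit that adds the level of the T cell markers, and of no other cell type, gave −0.33, with 28 of 33 lower. The part of other cell types in the result was not tested.

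**Figure D5:**
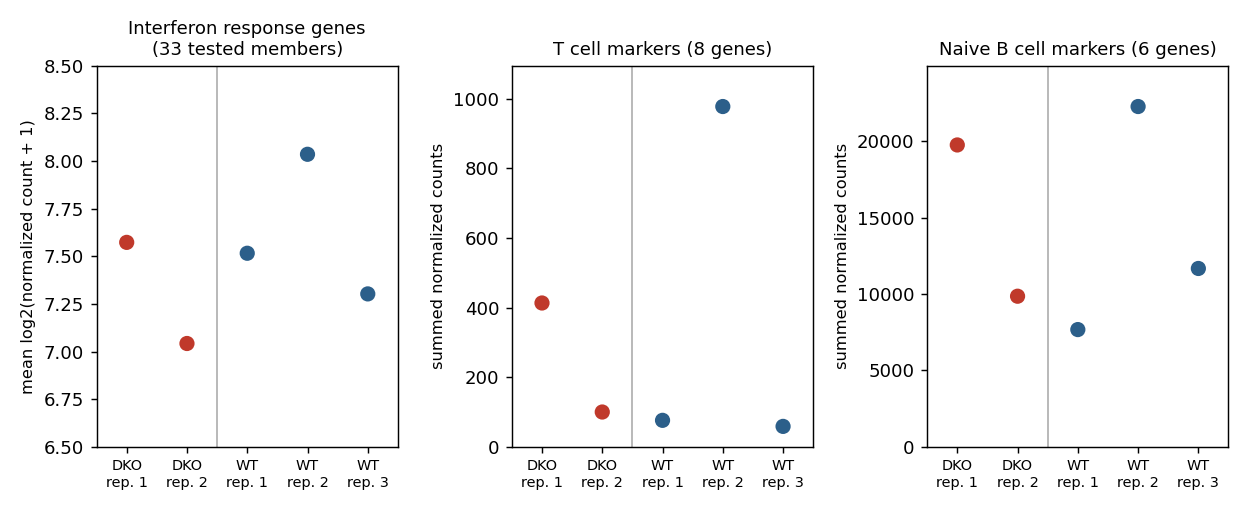
Level of the 33 tested members (mean log2 of normalized count + 1, left), of 8 T cell markers and of 6 naive B cell markers (summed normalized counts, middle and right) in each library, red for DKO and blue for WT. WT replicate 2 is highest in all 3 panels, and DKO replicate 2 is lowest only for the interferon response genes.

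In the OAS family the groups did not overlap in 1 of the 5 tested members (20%). The background over all tested genes was 11.0% below WT without overlap and 23.4% in either direction. Oasl2, a mouse oligoadenylate synthetase-like gene, was at 12.3 and 81.8 in DKO replicates 1 and 2, against 149.9, 237 and 160.5 in WT replicates 1 to 3. Both DKO libraries were below every WT library, and here DKO replicate 1 was the lower of the pair, unlike in most members. The log2 fold change was −2.44 ± 0.68 (SE), with an adjusted p of 0.823 in limma. It was −1.96 in both edgeR and DESeq2. In limma it was −1.12 without DKO replicate 1 and −3.76 without DKO replicate 2. The reads behind these values were 14 and 99 in DKO, against 140, 230 and 167 in WT. Its relative Oasl1, which in mice holds back translation of Irf7, was at 74.4 and 29.7 in DKO, against 20.3, 139 and 34.6 in WT, so the groups overlapped fully. Oas1a, Oas2 and Oas3 make oligoadenylates that activate the nuclease RNase L, and their log2 fold changes ran from −0.46 to 0.67 with overlapping groups. Oas3 averaged 83.2 ± 6.18 in DKO (SD, n = 2) and 127 ± 62.2 in WT (SD, n = 3). Within the family 2 of 5 tested members had lower means on the log2 scale in DKO. Reads of Oas1a and Oas1g may be shared between near-identical copies, which leaves both uncertain.

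The IFIT proteins bind foreign RNA ends and block its translation, and all 3 members had log2 fold changes below 0. Ifit1 was at 27.1 and 19.0 in DKO replicates 1 and 2, against 37.5, 193 and 44.2 in WT replicates 1 to 3. Both DKO values were below WT, and WT replicate 2 lay far above the other WT libraries. The log2 fold change of Ifit1 was −1.55 ± 0.72 (SE), and −0.81 without WT replicate 2. Ifit3 was at 32.4 and 24.0 in DKO, against 41.8, 93.9 and 38.4 in WT, with a log2 fold change of −0.91 ± 0.56, or −0.51 without WT replicate 2. Its highest DKO value and its lowest WT value were close to each other. The groups thus did not overlap in 2 of the 3 IFIT genes (66.7%), where the background was 11.0% below WT without overlap. Ifit2 had overlapping groups, at 241 and 129.7 in DKO and 147, 366 and 110 in WT. WT replicate 2 was the highest library for all 3 genes.

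The groups did not overlap in 1 of the 3 other IFI genes (33.3%), where the background was 11.0% below WT without overlap. This gene was Ifi27. It encodes a small hydrophobic membrane protein and was at 193 and 256 in DKO replicates 1 and 2, against 441, 391 and 353 in WT replicates 1 to 3. All WT libraries exceeded both DKO libraries, and WT replicate 2 did not stand out. The log2 fold change was −0.82 ± 0.26 (SE, adjusted p = 0.823 in limma). Leaving out 1 library at a time kept it between −1.03 and −0.62. Ifi35, which pairs with Nmi in the cytoplasm, averaged 354 ± 117 in DKO and 329 ± 94.3 in WT, and Ifi44 was near the limit of testing, at 10.5 and 4.96 in DKO and 32.1, 4.13 and 11.5 in WT.

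All 5 genes of the sensor and kinase group had log2 fold changes below 0, from −0.54 to −0.25, without a call. Dhx58 (LGP2), a helicase that tunes the RNA sensors RIG-I and MDA5, was at 152 and 147 in DKO replicates 1 and 2, against 193, 168 and 240.2 in WT replicates 1 to 3. Both DKO values lay just below the lowest WT value, and the log2 fold change was −0.40 ± 0.30 (SE). Dhx58 was 1 of the 5 (20%), where the background was 11.0% below WT without overlap. Ddx58, which encodes RIG-I, was at 653 and 358 in DKO and 543, 1189 and 370 in WT, with WT replicate 2 far above the rest. Ifih1, which encodes MDA5, averaged 81.2 ± 19.0 in DKO and 125 ± 55.9 in WT. Zbp1, a sensor of Z-form nucleic acids that can start necroptosis, was at 612 and 272 in DKO and 565, 683 and 399 in WT. Eif2ak2, the kinase PKR that stops translation on double-stranded RNA, had the highest level per kb of transcript in this group and averaged 1149.8 ± 81.8 in DKO and 1381 ± 264 in WT.

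The 3 factors that drive the response were detected in every library, and none passed the test. Irf7, which amplifies interferon transcription, was at 156 and 127 in DKO replicates 1 and 2, against 187, 208 and 159.5 in WT replicates 1 to 3. DKO replicate 1 and WT replicate 3 were nearly level, and the log2 fold change was −0.38 ± 0.30 (SE). Irf9, the DNA-binding partner of STAT2, was at 835 and 540.2 in DKO and 644, 956 and 828 in WT. Stat2 was at 1953 and 1613 in DKO, against 1794, 1579.7 and 2222 in WT, and was among the highest members per kb. The groups overlapped in Irf9 and Stat2. Irf7 was thus 1 of the 3 (33.3%), where the background was 11.0% below WT without overlap. The interval of the Stat2 difference ran from −0.55 to 0.44, and its sign turned in some of the alternative fits.

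In the ISG15 system, the mean per kb of transcript over the 5 libraries was 36.0 normalized counts for Isg15, 50.8 for Usp18 and 584 for Trim25. Isg15, a ubiquitin-like modifier, was at 20.1 and 24.0 in DKO replicates 1 and 2, against 62.1, 14.4 and 15.4 in WT replicates 1 to 3, so that WT replicate 1 alone stood out. Usp18 removes ISG15 and damps the interferon receptor, and it averaged 78.9 ± 34.5 in DKO and 97.3 ± 35.3 in WT. Trim25, a ubiquitin ligase that activates RIG-I, was at 3163 and 3199 in DKO, against 2568, 3473 and 3922 in WT. Its DKO values lay inside the WT range and its log2 fold change was −0.04 ± 0.22 (SE), a direction that turned under several settings. It ranked behind Samd9l alone per kb of longest annotated transcript, which stood at 692 normalized counts per kb.

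Of the 8 tested antiviral effectors 6 had a log2 fold change below 0, and none passed the test. Samd9l, which restrains both viruses and cell growth, was at 5114 and 1126 in DKO replicates 1 and 2, against 3515, 6193 and 2499 in WT replicates 1 to 3. DKO replicate 1 lay inside the WT range and DKO replicate 2 below it, 4.54-fold apart, and the log2 fold change of −0.66 ± 0.58 (SE) became 0.43 without DKO replicate 2. Isg20, an RNA exonuclease with a high level per kb, was at 278 and 368 in DKO and 506, 344 and 407 in WT. Its groups overlapped by DKO replicate 2 and WT replicate 2 only. Mx1, a dynamin-like GTPase that is defective in many laboratory mouse strains, had the highest log2 fold change of the members, at 1.09 ± 0.79. DKO replicate 1 was at 109 and DKO replicate 2 at 28.1, against WT libraries at 37.5, 41.3 and 10.6. Mx2 was at 14.01 and 5.78 in DKO and 3.21, 70.2 and 8.65 in WT, and Rtp4, a Golgi chaperone of receptors, was at 73.6 and 33.04 in DKO and 31.0, 189.8 and 28.8 in WT. Both had their highest value in WT replicate 2 by a wide margin. Rsad2, which makes an antiviral nucleotide, had 2 and 6 reads in DKO and 5, 34 and 2 reads in WT, again with WT replicate 2 apart. Bst2, which tethers virus particles to the membrane, averaged 28.2 ± 7.18 in DKO and 35.4 ± 6.27 in WT. Xaf1, a proapoptotic binder of XIAP, and Cmpk2, a mitochondrial nucleotide kinase, had log2 fold changes of 0.01 and −0.08.

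Parp9 and Dtx3l form a complex of an inactive ADP-ribosyltransferase and a ubiquitin ligase, and Parp14 adds single ADP-ribose units to proteins. Parp14 was at 3315 and 2187 in DKO replicates 1 and 2, against 3081, 3039.7 and 1740.3 in WT replicates 1 to 3. Dtx3l averaged 1608 ± 340.0 in DKO and 1733 ± 66.4 in WT, and Parp9 averaged 768 ± 133 in DKO and 841 ± 113 in WT. Their log2 fold changes ran from −0.13 to 0.09, the sign of Parp14 turned when single libraries were left out, and the groups overlapped in all 3. DKO replicate 2 was the lowest library for Parp9 and Dtx3l, as in the factors Irf7 and Irf9.

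The rest of the interferon pathway was taken from 5 lists with 125 genes in the table, of which 101 were tested. The ligand list was hardly detected: 17 of its 18 genes, Ifnb1 and Ifng among them, had 0 reads in all 5 libraries, which allows up to 3 reads per library, or 2.48 to 3.21 normalized counts. Ifnk was detected, at 3.50 and 10.7 in DKO and 7.49, 15.5 and 0.961 in WT. Receptor chains and kinases were present throughout. Ifnar1 averaged 1135 ± 375 in DKO and 1146 ± 397 in WT, while Ifnar2 was at 488 and 375 in DKO, against 472, 791 and 571 in WT, with a log2 fold change of −0.48 ± 0.28 (SE). Jak1 was at 10506 and 11039.9 in DKO, against 11138, 12960.3 and 11806 in WT, below WT without overlap but by a log2 difference of only −0.15. Tyk2 averaged 608 ± 82.8 in DKO and 636 ± 131 in WT. Irf3, which starts interferon transcription, averaged 1071 ± 8.62 in DKO and 1185 ± 277 in WT, and Irf1 was at 388 and 131 in DKO and 477, 234 and 197 in WT.

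None of these pathway genes passed the adjusted threshold in limma either (0% of all genes did). Of the 101, 66 (65.3%) had a log2 fold change below 0, against 49.95% of all genes tested, with a median of −0.10 against 0.00. The library counts below limit this share, since genes that move together are not separate observations of genotype. At an unadjusted p under 0.05 there were 3 lower and 1 higher of the 101, close to or below the background of 2.37% lower and 3.69% higher, and these 4 are given as descriptions. Tlr3, the endosomal sensor of double-stranded RNA, was at 70.1 and 37.2 in DKO replicates 1 and 2, against 226, 272 and 83.6 in WT replicates 1 to 3. The phosphatase gene Ptpn1, whose product acts on JAK2 and TYK2, was at 1483 and 1777 in DKO, against 2873, 2297 and 2428 in WT. The chemokine gene Cxcl10 was at 15.8 and 5.78 in DKO, against 63.2, 48.5 and 28.8 in WT. These 3 genes lay below WT in both DKO libraries, with log2 fold changes of −1.74 ± 0.54, −0.64 ± 0.20 and −2.10 ± 0.69 (SE). Of the 101 pathway genes, 11 (10.9%) lay below WT without overlap, level with the background of 11.0%. Above WT without overlap were 4 of them, where the background was 12.5%. Iigp1, an immunity-related GTPase, was high in 1 DKO library, at 309 and 14.9 in DKO and 21.4, 4.13 and 1.92 in WT, and its groups overlapped. The list of 63 tested interferon-induced genes outside the members was read by library in the same way. DKO replicate 2 was the lowest library for 33 of the 63 (52.4%, background over all tested genes 15.4%) and the highest for 0 (background 13.5%). DKO replicate 1 was the highest for 20 (31.7%, background 22.1%) and WT replicate 2 for 25 (39.7%, background 21.3%). Libraries of the same genotype differed by gene within a family. Gbp7, a guanylate-binding protein gene, was at 363 and 44.6 in DKO and 186, 390.0 and 52.9 in WT, while Gbp3 was at 656 and 561 in DKO and 763, 739 and 582 in WT. The Schlafen gene Slfn8 was at 1152 and 292 in DKO and 429, 1508 and 225 in WT, while Slfn3 was at 140.1 and 164 in DKO and 199, 127 and 194 in WT. These 4 were chosen after their values were seen, and they belong to families of close copies whose reads may be shared.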

How the data were processed

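RNA of the sorted cells was amplified (Ovation RNA-Seq System V2) before sequencing on a HiSeq2500, per the labels' protocols. Cufflinks 2.0.2, TopHat2 2.0.4, CASAVA 1.8.2 and the build mm9 appear in the submitters' processing notes. How genes were counted, with which annotation and strand setting, and how the factors were set is not given in the sources used here. Per gene and library, the authors deposited a normalized signal. Over 99.99% of the values above 0 in each library were whole multiples of its smallest value (within 0.01), so whole reads were recovered. Of 38924 names, 35853 matched GENCODE M21 or RefSeq GRCm38.p6 symbols, used for spelling, and lengths are of the longest GENCODE M21 transcript.

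DKO (n = 2) was compared with WT (n = 3) over all 13242 genes with a mean of at least 10, with limma 3.58.1 (R 4.3.3, trend, two-sided) on log2(value + 1), Benjamini-Hochberg adjusted, threshold 0.05. The added 1 shrinks the fold of low genes. Averaging logs can move it the other way: the log2 fold change of Oasl2 was −2.44 in limma and −1.96 in edgeR and DESeq2. The fit had 3 residual degrees of freedom and 5.92 from the prior. EdgeR 4.0.16 and DESeq2 1.42.0 ran on recovered reads. The scripts were tested on simulated data. Floors cover counting error only. The members and lists were chosen with earlier results of these data known. Values in every library are given for members with an unadjusted p under 0.05 or groups without overlap and the 6 highest per kb, and for at least 1 member of each role. Other members are given by examples. Outside the members, named are receptors and factors of the pathway and pathway genes with an unadjusted p under 0.05, the rest are given as counts, and 1 gene that this rule names is not reported here. The minimum of 10 left out Oas1g and Rsad2.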

Additional observations from a re-analysis of the deposited data

How the results depend on the processing

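Across 18 alternatives the members were called only with the replicate block, where Oasl2 passed (1 member, log2 fold change −2.52, adjusted p = 0.0321, against 0.0321 to 0.9998 over its alternatives) among 36 genes called in all. Same-numbered libraries did not deviate together (correlations of deviations 0.005 for number 1 and −0.28 for number 2), so the numbers are not taken as pairs, and that fit leaves WT replicate 3 out of the comparison. Libraries with other numbers did deviate together across genotypes. The correlation was 0.28 for DKO replicate 1 with WT replicate 2, and 0.33 for DKO replicate 2 with WT replicate 3. With 2 DKO libraries, the correlations of 1 are those of the other with the sign turned. Over all genes, DESeq2 called 29, the T cell covariate 3 and the fit without both WT replicate 2 and DKO replicate 1 called 2, and leaving out 1 library called 0 to 1. Leaving out 1 library gave 15 to 32 members lower and medians from −0.54 to 0.07, with the lowest count and the positive median without DKO replicate 2. In the other alternatives the median lay between −0.38 and −0.23. Among named members, Parp14 turned to −0.058 with the length and GC correction, −0.18 with the block and −0.082 without both libraries. Stat2 turned to 0.076 and Trim25 to 0.091 with the block, and Trim25 to 0.011 without both libraries, where Stat2 was −0.31. Leaving out 1 library, Parp14 ran from −0.21 to 0.39, Stat2 from −0.20 to 0.081, Trim25 from −0.21 to 0.091 and Samd9l from −1.75 to 0.43. Isg20 ran from −0.57 to −0.17, Irf7 from −0.53 to −0.24 and Dhx58 from −0.52 to −0.26. The causes were not tested. With 2 DKO libraries, and as few as 3 reads for Mx2, 4 for Ifi44 and 14 for Oasl2 or Isg15 in 1 library, small differences in such genes were not detectable at this depth. Wide errors were not limited to low genes, as Samd9l had a standard error of 0.58 with 1363 to 6002 reads per library.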
